A study of Mus musculus with 6 samples.

Results

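Myosin light chains and the kinases that phosphorylate them were followed in leg muscle of mouse fetuses on embryonic day 18.5 (E18.5d), with 3 WT and 3 *SYISL* KO samples. The set held 9 genes, taken by name from the 56262 genes listed, and all 9 were among the 22071 genes with enough counts for a test. They were the essential light chains *Myl1*, *Myl3*, *Myl4*, *Myl6* and *Myl6b*, the regulatory light chains *Mylpf* and *Myl2*, and the kinases *Mylk2* and *Mylk4*. The light chains and the kinase of fast muscle, *Myl1*, *Mylpf* and *Mylk2*, stood 2.3 to 2.74 times as high in KO as in WT, and the slow and ventricular light chain *Myl2* stood 3.13 times as high. *Myl3*, the essential chain of the same slow and ventricular muscle, rose less, to 1.59 times its WT level. *Myl4* and *Myl6*, the embryonic and the nonmuscle essential chains, did not pass the test.

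A muscle myosin consists of a pair of heavy chains, and the neck of each heavy chain carries 1 essential and 1 regulatory light chain. The essential chain stiffens the neck, and the regulatory chain tunes how readily the head reaches the actin filament. Kinases phosphorylate the regulatory chain, among them that of *Mylk2*, which calcium-bound calmodulin switches on, and myosin phosphatase removes the phosphate. Light chains come in isoforms that follow the heavy chains of embryonic, slow, fast, cardiac, smooth muscle or nonmuscle cells, and the embryonic isoforms give way to adult ones as skeletal muscle matures.

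*SYISL* is a long noncoding RNA of muscle, and the KO fetuses lack it. The purpose of the comparison was to see how its loss bears on muscle development before birth. Mice were mated within a genotype, so the genotype of the fetus and that of its mother cannot be told apart. The labels do not say which samples came from separate fetuses or litters, and they give no strain, so p-values measure only the spread between these samples. The samples held 82054811 to 102233181 counts each, and the 9 genes took 0.525% to 0.564% of them in WT and 0.959% to 1.24% in KO. Counts of every pair of samples of 1 genotype differed by more than counting noise on average, with a mean chi-square per gene of 5.22 to 36.2. *Synpo2*, whose intron overlaps *SYISL*, had 10812 to 14672 counts in WT and 18054 to 22270 in KO, so its gene count does not show the deletion. The muscle fibre markers were abundant in all 6 samples, led by the skeletal actin *Acta1* whose WT mean was 4513.4 CPM and whose KO mean was 12495.1 CPM.

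The stretches of 250 bases before the RefSeq transcription starts of 4 light chain genes are printed because these genes rose strongly (*Myl1*, *Mylpf*), rose less (*Myl3*) or did not pass the test (*Myl4*). They come from build GRCm38.p6 and read 5′ to 3′ on the strand of the gene. Capitals mark matches on either strand to the E-box CANNTG, which MyoD family factors bind, its form CAGCTG, the TATA motif TATAAA, the MEF2 site and the CArG box, which serum response factor binds. The window of *Myl1* lies at chr1:66945057-66945306 on the minus strand, that of *Mylpf* at chr7:127211358-127211607, that of *Myl3* at chr9:110763428-110763677 and that of *Myl4* at chr11:104550413-104550662, these 3 on the plus strand.
Myl1: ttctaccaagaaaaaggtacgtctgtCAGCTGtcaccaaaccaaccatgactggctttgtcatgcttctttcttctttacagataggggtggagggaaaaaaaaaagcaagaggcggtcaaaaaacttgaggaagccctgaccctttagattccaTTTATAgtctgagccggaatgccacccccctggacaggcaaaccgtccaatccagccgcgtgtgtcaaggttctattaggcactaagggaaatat
Mylpf: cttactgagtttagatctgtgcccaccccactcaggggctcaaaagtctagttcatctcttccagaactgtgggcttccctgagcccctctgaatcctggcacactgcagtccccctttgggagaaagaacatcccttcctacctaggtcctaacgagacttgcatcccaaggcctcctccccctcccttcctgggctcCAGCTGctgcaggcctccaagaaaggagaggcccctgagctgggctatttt
Myl3: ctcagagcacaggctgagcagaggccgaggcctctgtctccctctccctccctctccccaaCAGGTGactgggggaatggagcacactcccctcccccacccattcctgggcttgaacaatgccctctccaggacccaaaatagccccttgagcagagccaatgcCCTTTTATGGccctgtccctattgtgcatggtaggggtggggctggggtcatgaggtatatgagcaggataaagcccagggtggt
Myl4: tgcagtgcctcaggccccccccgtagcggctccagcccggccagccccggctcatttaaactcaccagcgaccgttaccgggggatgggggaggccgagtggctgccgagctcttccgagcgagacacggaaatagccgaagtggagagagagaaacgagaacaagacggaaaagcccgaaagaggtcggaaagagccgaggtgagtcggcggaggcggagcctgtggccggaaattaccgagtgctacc
In the *Myl1* window, CAGCTG began 224 bases before the start, and TATAAA stood on the other strand 95 bases before it. In the *Mylpf* window CAGCTG began 51 bases before the start, and in the *Myl3* window an E-box of another form lay at 189 bases and a CArG box at 85 bases. The *Myl4* window held none of the 5 motifs. Over all 32851 promoter windows of this length, 66.2% held an E-box, 13.0% CAGCTG, 12.4% TATAAA, 2.92% a MEF2 site and 1.47% a CArG box, and each CAGCTG is also counted as an E-box. A match describes the letters only. Windows were at hand for 8 of the 9 genes, not for *Mylk2*, and *Mylk4* was the only one of the 8 with a MEF2 site. Among the windows not printed, that of *Mylk4*, which rose by less than 1.5-fold, also held CAGCTG. Of the 2 windows of *Myl2*, which rose most, only 1 held CAGCTG. *Myl6*, which did not pass the test, had an E-box in 1 window and a CArG box in another. The motifs thus did not divide the genes by their change. The RefSeq starts are not always those of GENCODE release M21, and for *Myl3* they lie 21817 bases apart.

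*Myl1* encodes the essential light chain of fast skeletal fibres, in a long and a short form from separate promoters that a count per gene cannot separate. The window printed above lies before 1 transcription start and so does not cover both promoters. The gene (ENSMUSG00000061816.15) is found at 66924295 to 66945404 of chromosome 1 (mm10, minus strand). Its level was 2321, 2243 and 2333 CPM in WT and 4659.7, 6247.7 and 6091.6 CPM in KO, where CPM are counts relative to a TMM-scaled library total. Every KO sample lay far above every WT sample, and the KO samples were the more spread. The mean rose from 2299 ± 48.9 CPM to 5666.3 ± 875 CPM (SD of 3 samples in each group). This is a log2 fold change of 1.30 (95% interval 1.06 to 1.55) with an adjusted p of 1.11e-05 from edgeR, by its quasi-likelihood F-test and the Benjamini-Hochberg correction, the source of each adjusted p that follows. In bulk tissue, fewer cells of a type and less RNA per cell cannot be told apart, and this holds for every level given here. *Mylf-ps*, a processed pseudogene on chromosome 12 whose sequence is 99.3% identical to *Myl1* over 421 bases, had 1.48% to 1.87% as many counts as *Myl1* in each sample. Adding its counts to *Myl1* left the log2 fold change at 1.30, which so few counts could hardly change. Of the 50-base stretches of the main transcript of *Myl1*, 32.1% also occur in this pseudogene. Reads that map to both genes and were left uncounted, if any, are not restored by the sum.

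*Myl3* encodes the essential light chain of slow fibres and of the heart ventricle (ENSMUSG00000059741.13, plus strand of chromosome 9, 110741861 to 110769798). The WT samples held 53.4, 51.1 and 53.1 CPM and the KO samples 76.4, 88.2 and 86.5 CPM. The groups did not overlap, and the gap between them was wider than the spread within either. From 52.5 ± 1.23 to 83.7 ± 6.4 CPM (SD, n = 3 each) the log2 fold change was 0.67 (95% interval 0.55 to 0.80, adjusted p = 1.04e-05), just past the fold threshold of 1.5, and it would not pass a threshold of 2. A stretch of 95 of its 2044 exon bases overlaps *Pth1r*, a receptor gene on the other strand with up to 7534 counts in a sample and a log2 fold change of -0.10. Whether the counting used strand is not stated, so reads of that stretch could have been counted for either gene or for neither.

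*Myl4* encodes the essential light chain of embryonic skeletal muscle and of the heart atrium (ENSMUSG00000061086.12, plus strand of chromosome 11, 104550663 to 104595753). It stood at 395, 401 and 403 CPM in WT and at 351, 393 and 367 CPM in KO. The WT samples lay close together above the KO samples, by a margin smaller than the KO spread. With means of 399 ± 3.98 and 370 ± 21 CPM (SD, n = 3 each), the log2 fold change of -0.11 (95% interval -0.23 to 0.01) had an adjusted p of 0.115 in edgeR's test and did not pass.

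*Myl6* encodes the essential light chain of nonmuscle and smooth muscle myosins (ENSMUSG00000090841.2, minus strand of chromosome 10, 128490860 to 128494145). Levels of 344, 323 and 324 CPM in WT and of 315, 344 and 324 CPM in KO overlapped, with the highest value of either group at the same 344 CPM. The log2 fold change was -0.01 (95% interval -0.13 to 0.10, adjusted p = 0.88), an interval that lies within 1.5-fold on either side. Of the 50-base stretches of its main transcript, 53.2% also occur in 5 processed pseudogenes, none of which had more than 690 counts in a sample. Reads that map to *Myl6* and a pseudogene and were left uncounted, if any, are missing from these levels. The level of *Myl6* beside that of other genes could thus be too low.

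*Myl6b*, which adjoins *Myl6* on the same strand (ENSMUSG00000039824.4, 128494157 to 128498685), encodes another nonmuscle essential chain that slow muscle also uses. Its level was 65.2, 78.8 and 70.8 CPM in WT and 86.7, 91.0 and 88.6 CPM in KO. The groups did not overlap, although the WT samples were more spread than those of any other member, with a coefficient of variation of 9.51%. The log2 fold change of 0.31 (95% interval 0.17 to 0.45) had an adjusted p of 0.00302 and was under the fold threshold.

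*Mylpf* encodes the regulatory light chain of fast skeletal fibres (ENSMUSG00000030672.12, plus strand of chromosome 7, 127208890 to 127214298). Its WT samples held 2046.2, 1883.9 and 2044.7 CPM, and its KO samples 3712.2, 5224.8 and 4785.6 CPM. No KO sample came near the WT range, and KO replicate 1 was again the lowest of its group. The mean of 1991.6 ± 93.2 CPM in WT stood against 4574.2 ± 778 CPM in KO (SD, n = 3 each), so the log2 fold change was 1.20 (95% interval 0.94 to 1.46, adjusted p = 3.13e-05).

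*Myl2* encodes the regulatory light chain of slow fibres and of the heart ventricle (ENSMUSG00000013936.12, plus strand of chromosome 5, 122100951 to 122113472). It had 27.3, 25.4 and 27.6 CPM in WT against 66.2, 98.2 and 87.4 CPM in KO. Every KO sample lay above every WT sample, and the coefficient of variation was 4.45% in WT and 19.4% in KO. The mean went from 26.8 ± 1.19 to 83.9 ± 16.3 CPM (SD, n = 3 each), and the log2 fold change of 1.65 (95% interval 1.37 to 1.92, adjusted p = 5.07e-06) was the highest of the 9. Only 60 of its 1950 exon bases overlap another gene, *Ccdc63* on the other strand, which had at most 55 counts in a sample.

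*Mylk2* encodes the calmodulin-dependent light chain kinase of skeletal muscle, whose substrates are the regulatory chains of *Mylpf* and *Myl2* (ENSMUSG00000027470.9, plus strand of chromosome 2, 152911352 to 152923068). Levels of 38.2, 35.9 and 38.1 CPM in WT stood against 84.1, 111 and 112 CPM in KO. The groups were far apart, and KO replicate 1 was the lowest of its group. The log2 fold change was 1.45 (95% interval 1.23 to 1.67, adjusted p = 2.85e-06), from 37.4 ± 1.31 to 102 ± 15.7 CPM (SD, n = 3 each).

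*Mylk4* encodes a kinase of the same family that is found in striated muscle (ENSMUSG00000044951.17, minus strand of chromosome 13, 32700834 to 32783954). Samples of WT held 165, 170 and 169 CPM and those of KO 210, 226 and 238 CPM. The groups did not overlap, and the difference was smaller in proportion than for *Mylk2*. Its log2 fold change of 0.42 (95% interval 0.31 to 0.53, adjusted p = 1.28e-04) was under the fold threshold.

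**Figure D1:**
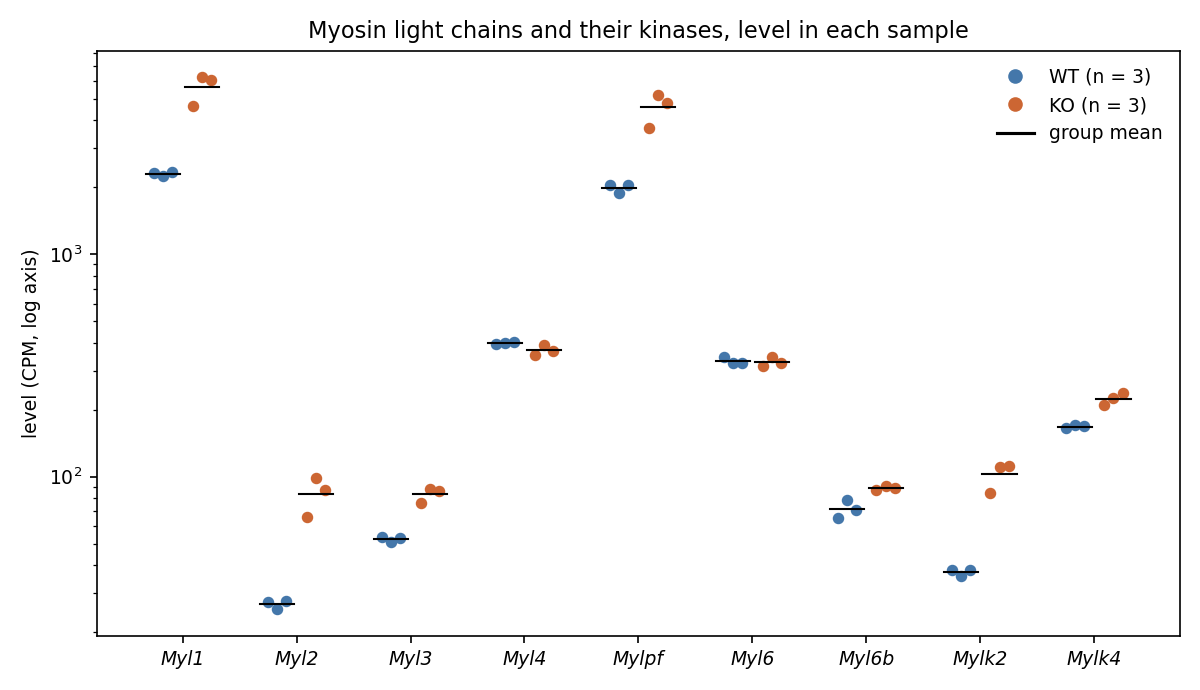
Level of each of the 9 genes in each sample, in CPM on a log axis, with 3 WT samples (blue), 3 KO samples (orange) and the group mean as a line. *Myl1* and *Mylpf* stand far above the other genes in counts, the 5 genes that passed the test show separate groups, and the groups of *Myl6* overlap.

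Genes were called changed where the adjusted p was under 0.05 and the levels differed by over 1.5-fold. By this rule 5 of the 9 genes rose and 0 fell, beside 8.31% of all genes tested called higher and 8.39% called lower in KO, or 16.7% in either direction. The 5 were *Myl1*, *Myl2*, *Myl3*, *Mylpf* and *Mylk2*, and *Myl6b* and *Mylk4* joined them with no fold threshold, where 21.9% of all genes were higher and 23.1% lower, or 45.0% in all. The groups did not overlap for 8 of the 9, all but *Myl6*, beside 55.9% of all genes. The median log2 fold change was 0.67 over the 9 genes and -0.00415 over all genes tested. The edgeR counts of genes are those of 1 fit to the whole table, and no test was made of the 9 genes as a set.

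All 9 genes were lowest in KO replicate 1 among the KO samples, which held for 38.4% of the genes tested. Among the WT samples, WT replicate 2 was the lowest for each of the 5 genes that rose. Without KO replicate 1 or without WT replicate 2 the same 5 genes passed the test.

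**Figure D2:**
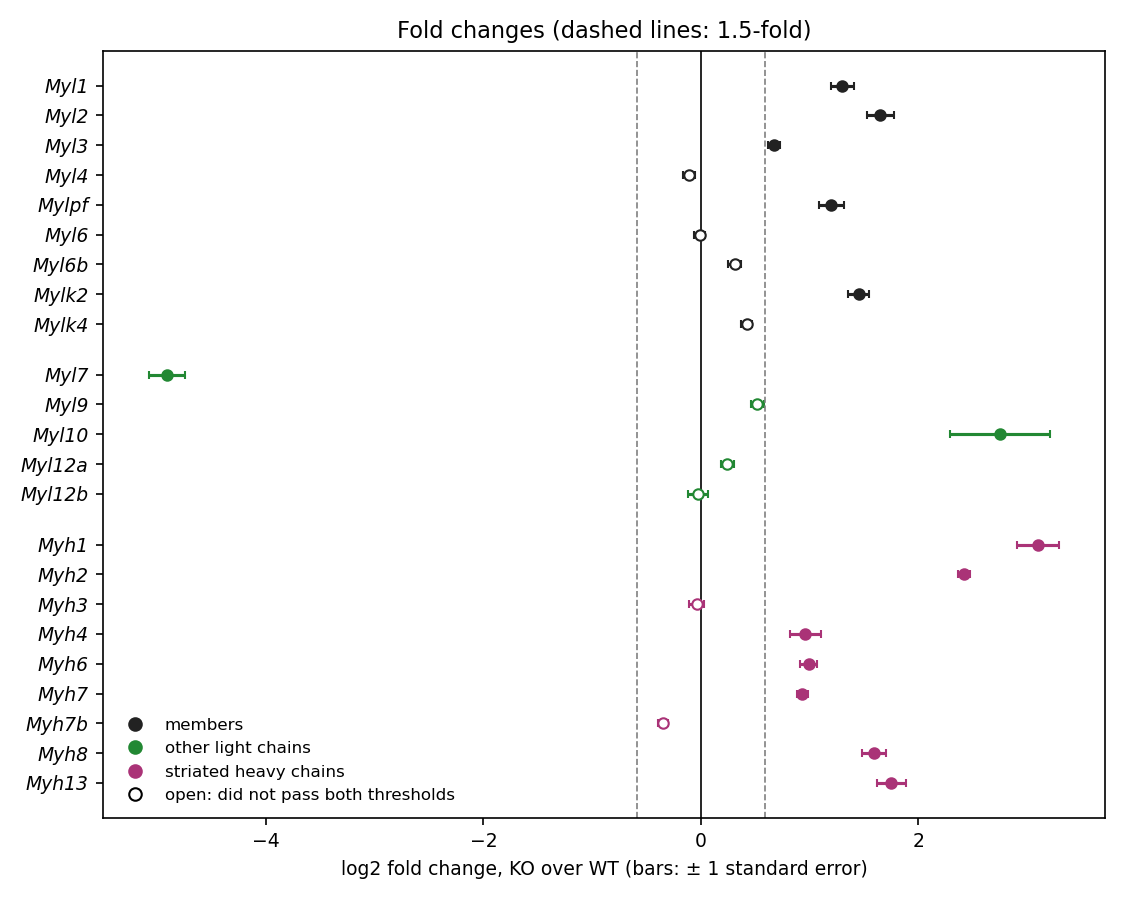
Log2 fold change of KO over WT from edgeR for the 9 genes (black), the other light chains (green) and the striated heavy chains (purple), with bars of 1 standard error, filled where a gene passed both thresholds. *Myl7* stands alone at -4.91, and the heavy chains that rose reach from 0.93 for *Myh7* to 3.10 for *Myh1*.

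Ratios of 2 light chain genes within a sample do not depend on the scaling of the library. They were taken from TPM (counts divided by exon length, then scaled to the same sum in every sample) for 8 pairs, each with a two-sided exact permutation test, in which 3 samples against 3 cannot give a p below 0.1. *Myl4* over *Myl1*, the embryonic against the fast essential chain, had log2 ratios of -3.72, -3.65 and -3.70 in WT and of -4.89, -5.15 and -5.21 in KO. It thus moved by -1.40, so that the embryonic chain stood at 0.379 times its WT proportion to the fast one. *Myl3* over *Myl1*, the slow against the fast essential chain, moved by -0.62, from -5.43 ± 0.00837 to -6.05 ± 0.122 (SD, n = 3 each).

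The regulatory chains moved the other way. *Myl2* over *Mylpf*, the slow against the fast regulatory chain, had log2 ratios of -7.10, -7.09 and -7.09 in WT and of -6.69, -6.61 and -6.65 in KO, a move of 0.44. *Myl3* and *Myl2*, the essential and the regulatory chain of slow and ventricular muscle, therefore rose unequally. Their log2 ratio was 0.90 ± 0.0328 in WT and -0.06 ± 0.182 in KO (SD, n = 3 each), so their levels lay closer together in KO. *Myl1* over *Mylpf*, the pair of fast fibres, moved by only 0.10, and its groups met at -0.71 when rounded, with WT replicate 2 and KO replicate 2 next to each other. *Myl6b* over *Myl6* moved by 0.33.

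Between the kinases, *Mylk4* over *Mylk2* moved by -1.02, from a log2 ratio of 0.79 ± 0.0655 to -0.24 ± 0.153 (SD, n = 3 each), so that by union length *Mylk4* had the higher level in WT and *Mylk2* in KO. *Mylk2* over its substrate gene *Mylpf* moved by 0.25. The groups did not overlap in any of the 8 ratios, and each had p = 0.1 in the exact permutation test, the smallest p possible, and 0.1 after Benjamini-Hochberg adjustment over the 8 pairs. The differences do not depend on the exon lengths, but the order of 2 genes can. By the length of the main transcript *Mylk4* was the higher in both genotypes, with 67.5 TPM against 28.4 for *Mylk2* in WT and 87.8 against 75.2 in KO.

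**Figure D3:**
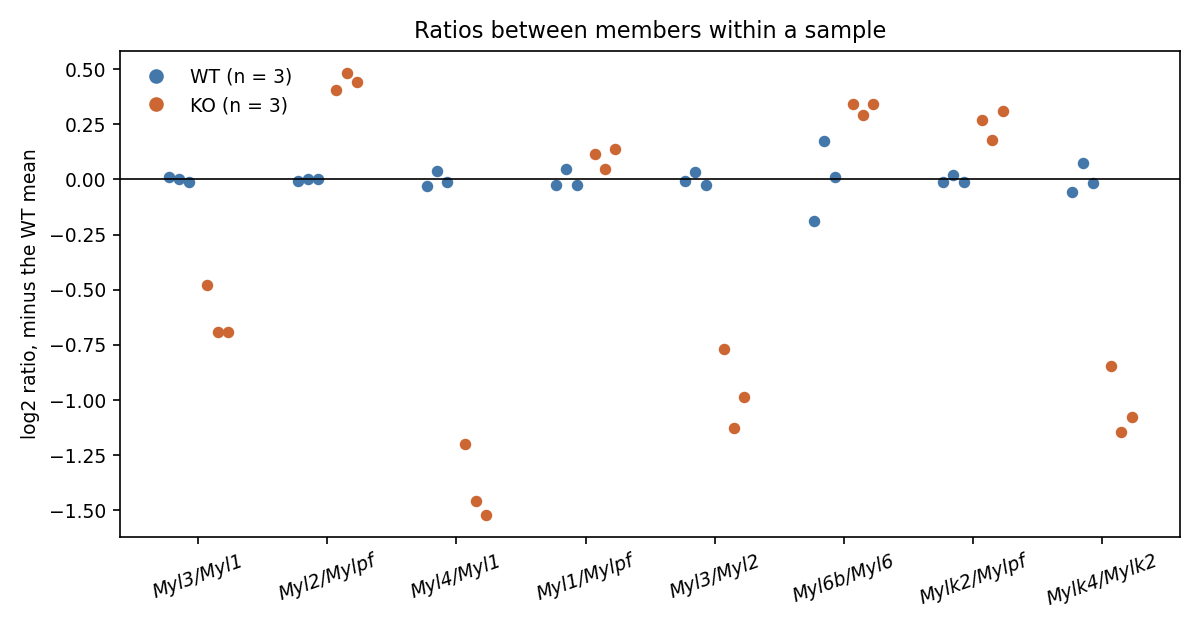
Log2 ratio of TPM between pairs of the 9 genes in each sample, minus the mean of the 3 WT samples, with WT in blue and KO in orange. *Myl4* over *Myl1* lies lowest in KO with a mean of -1.40 from WT, and *Myl2* over *Mylpf* highest with 0.44.

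Per length, *Mylpf* and *Myl1* were the most abundant of the 9 in both genotypes, and their order depended on the length used. By the union of exons *Mylpf* had 5900.1 ± 377 TPM in WT and 13079 ± 1760 TPM in KO, and *Myl1* had 3486.5 ± 138 and 8298.7 ± 981 TPM (SD, n = 3 each). By the length of the main transcript *Mylpf* had 5829.4 TPM in WT and *Myl1* 6417.7 TPM, since the union of *Myl1* exons takes in 2074 bases and its main transcript 803. By the union length the other 7 genes followed in WT in the order *Myl6* (326 TPM), *Myl4* (271), *Myl6b* (122), *Myl3* (80.8), *Mylk4* (68.7), *Myl2* (43.2) and *Mylk2* (39.9). *Myl2* and *Mylk2* lay within their spread of each other in WT, at 40.1 to 45.3 and 37.5 to 41.3 TPM. In KO the order was *Myl6* (313 TPM), *Myl4* (243), *Myl6b* (146), *Myl2* (131), *Myl3* (125), *Mylk2* (105) and *Mylk4* (89.0). Of the neighbours in KO, *Myl6b* and *Myl2*, *Myl2* and *Myl3*, and *Mylk2* and *Mylk4* overlapped in their samples. This order too depended on the length used. By the length of the main transcript *Myl6b* had 188 TPM in KO, under *Myl2* (205) and *Myl3* (194), again with overlapping samples. By that length *Myl6* and *Myl4* had 1072.6 and 854 TPM in KO.

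The make-up of the essential light chain pool was taken as the share of each gene in the summed TPM of *Myl1*, *Myl3*, *Myl4*, *Myl6* and *Myl6b* in a sample. *Myl1* held 81.5%, 80.9% and 81.7% in WT and 89.7%, 91.4% and 91.6% in KO. *Myl4* held 6.20%, 6.46% and 6.30% in WT and 3.02%, 2.57% and 2.47% in KO. So the fast chain took a larger part of the pool in every KO sample, and the embryonic chain a smaller part, although its own level did not pass the test. The share of *Myl6* went from 7.61% ± 0.25 to 3.46% ± 0.425, that of *Myl6b* from 2.85% ± 0.315 to 1.62% ± 0.219, and that of *Myl3* from 1.89% ± 0.0152 to 1.37% ± 0.103 (SD, n = 3 each). *Myl3* thus had a lower share of the pool in every KO sample while its level rose.

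In the regulatory pool of *Mylpf*, *Myl2*, *Myl7*, *Myl9*, *Myl10*, *Myl12a* and *Myl12b*, *Mylpf* held 89.4% ± 0.249 in WT and 93.0% ± 0.584 in KO. *Myl2* held 0.650%, 0.655% and 0.659% in WT and 0.897%, 0.957% and 0.926% in KO. With *Mylpf* and *Myl2* alone in the pool, the share of *Mylpf* moved the other way, by -0.26 percentage points. Of the 12 shares compared, none overlapped between the groups, and each had p = 0.1 in the two-sided exact permutation test, the smallest p possible, also after Benjamini-Hochberg adjustment. The shares of a pool sum to the whole, so a gene that rose less than its pool must lose share. The 12 shares are thus not independent of each other. The smaller shares of *Myl4* and *Myl6*, whose levels did not pass edgeR's test, mostly restate the rise of *Myl1*. By the length of the main transcript the share of *Myl1* was 73.2% in WT and 86.8% in KO and that of *Myl4* 10.8% and 4.88%, where the union of *Myl4* exons has 4637 bases and its main transcript 943.

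**Figure D4:**
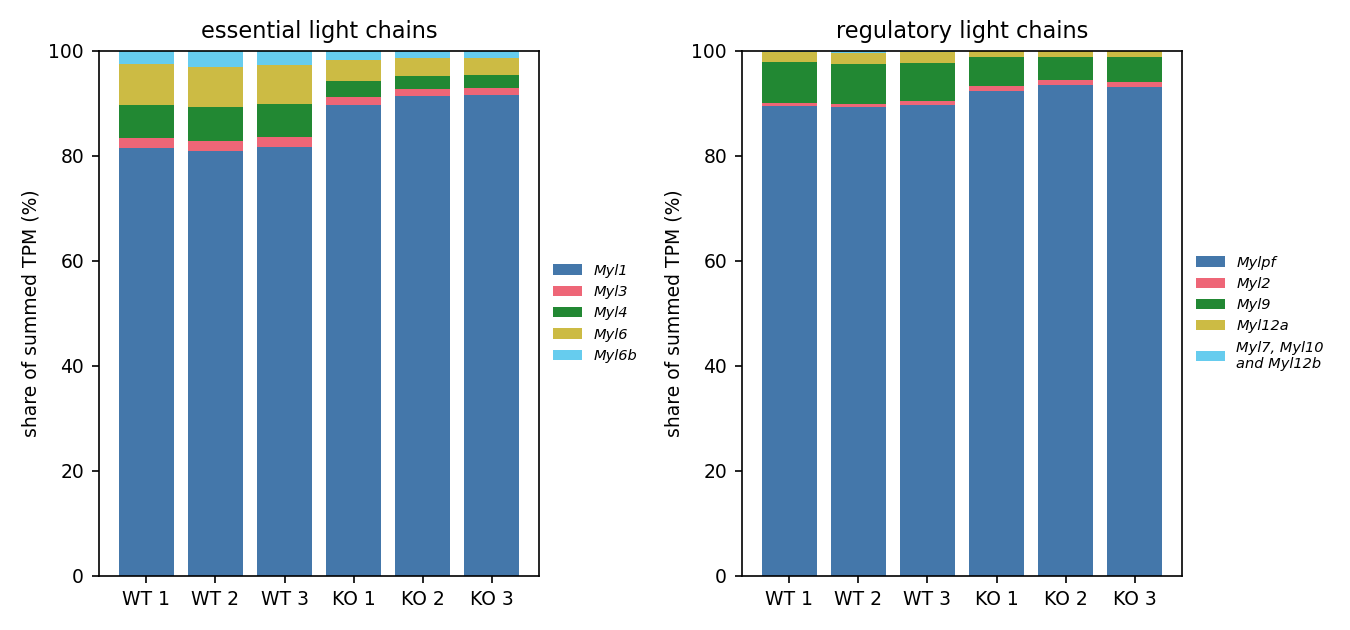
Share of each gene in the summed TPM of the essential (left) and regulatory (right) light chains, in percent, as stacked bars for each sample. *Myl1* takes 80.9% to 81.7% of the essential pool in WT and 89.7% to 91.6% in KO, and *Mylpf* goes from a mean of 89.4% to one of 93.0% of the regulatory pool.

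Of the other 5 light chain genes, 1 rose, 1 fell and 3 were not called, with a median log2 fold change of 0.24. *Myl7*, the regulatory chain of the heart atrium, fell from 2.59, 3.03 and 2.68 CPM to 0.0747, 0.105 and 0.0925 CPM. These are 245 to 283 counts against 7 to 10 counts in a sample, which gave a log2 fold change of -4.91 ± 0.168 (standard error) and an adjusted p of 6.95e-08 in edgeR, and they are low beside the 25.4 to 98.2 CPM of *Myl2*. *Myl10*, a regulatory chain first described in lymphocyte precursors, rose from 2 to 9 counts to 21 to 51 counts in a sample (log2 fold change 2.75, adjusted p = 0.00105 from edgeR), a level near the detection limit. Both genes leave the test when at least 10 counts are asked in every sample. *Myl9*, the smooth muscle chain, had a log2 fold change of 0.52 and the nonmuscle chain *Myl12a* one of 0.24, both under the fold threshold with adjusted p of 8.65e-05 and 0.0093 in edgeR's test. *Myl12b* had -0.03, and 26.7% of its exon bases overlap a second gene of the same name, so its counts are uncertain.

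None of the 5 other kinases of the regulatory chain was called, and their median log2 fold change was 0.32. Values were 0.50 for *Mylk* of smooth muscle, 0.35 for *Mylk3* of the heart and 0.32 for the kinase gene *Rock2*, with adjusted p of 6.07e-05, 0.0152 and 0.00134 in edgeR's test. *Rock1* (0.05) and *Dapk3* (-0.05) did not pass at any fold. *Mylk2* was thus the only one of 7 kinase genes past both thresholds.

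Of 7 genes of myosin phosphatase and its inhibitors, 2 rose and 0 fell, with a median log2 fold change of 0.08. *Ppp1r12b*, a targeting subunit found in striated muscle, went from 104 ± 4.74 to 180 ± 8.01 CPM (SD, n = 3 each), or 0.79 as a log2 fold change. The inhibitor gene *Ppp1r14c* had a log2 fold change of 0.83, and adjusted p were 1.73e-06 and 9.01e-05 in edgeR's test. The catalytic subunit *Ppp1cb* was at 0.08 and the targeting subunits *Ppp1r12a* and *Ppp1r12c* at -0.03 and -0.11, while the inhibitors *Ppp1r14a* and *Ppp1r14b* had 0.44 and -0.38. The calmodulin genes *Calm2* and *Calm3* were not called, with log2 fold changes of 0.08 and -0.02.

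The light chains bind heavy chains, and 7 of the 9 striated heavy chain genes tested rose, with a median log2 fold change of 0.99. The values were 3.10 for *Myh1* and 2.42 for *Myh2* of fast fibres, 0.96 for fast *Myh4*, 1.59 for perinatal *Myh8*, 0.93 for slow *Myh7*, 0.99 for atrial *Myh6* and 1.75 for *Myh13* of eye muscle, with edgeR adjusted p of at most 4.42e-04. Embryonic *Myh3*, like the embryonic light chain *Myl4*, did not pass, with a log2 fold change of -0.04. *Myh7b* had -0.35, under the fold threshold, and *Myh15* was too low to be tested. Of the summed TPM of heavy chains by union length, *Myh3* held 59.3% in WT and 32.8% in KO, and *Myh8* 36.7% and 62.6%. By the length of the main transcript *Myh8* was the higher in both genotypes, with 1717.9 TPM against 1452.5 for *Myh3* in WT. In KO these were 5005.4 and 1373.5 TPM. Which of them led in WT thus depended on the length used, while the proportion of *Myh8* to *Myh3* was higher in KO by either length.

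The log2 ratio of summed TPM of *Myl1*, *Myl3* and *Myl4* to that of the heavy chains was 0.10, 0.23 and 0.16 in WT and 0.40, 0.68 and 0.61 in KO. For *Mylpf* and *Myl2* it was 0.76, 0.81 and 0.81 in WT and 0.98, 1.34 and 1.18 in KO. Neither ratio overlapped between the groups by this length, with differences of 0.40 and 0.37 and p = 0.1 in the two-sided exact permutation test for both. By the length of the main transcript the differences were 0.11 and 0.14, the groups overlapped and p was 0.3, since the union of *Myh8* exons takes in 11772 bases against 6149. Whether the light chains rose more than the heavy chains thus depended on the lengths used.

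Against 10 other muscle fibre genes of the same library, the members fell into separate groups. The mean log2 CPM of these 10 genes was 9.31, 9.20 and 9.31 in WT and 10.24, 10.51 and 10.50 in KO, a difference of 1.15. *Mylpf* kept pace, with a difference of 0.04 to this mean, overlapping groups and p = 0.7 in the exact permutation test. *Myl2* went beyond it by 0.48, *Mylk2* by 0.29 and *Myl1* by 0.14. *Myl3* stood at -0.48, so that it was lower in KO relative to the muscle fibre genes although its level rose. *Mylk4* stood at -0.73, *Myl6b* at -0.83, *Myl6* at -1.16 and *Myl4* at -1.26. These 8 did not overlap between the groups and had p = 0.1 in the exact permutation test, or 0.113 after adjustment over the 9 genes. A gene whose own level did not change must fall relative to the 10 fibre genes by about as much as they rose. The values of *Myl6* and *Myl4*, which did not pass edgeR's test, thus mostly restate that rise.

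**Figure D5:**
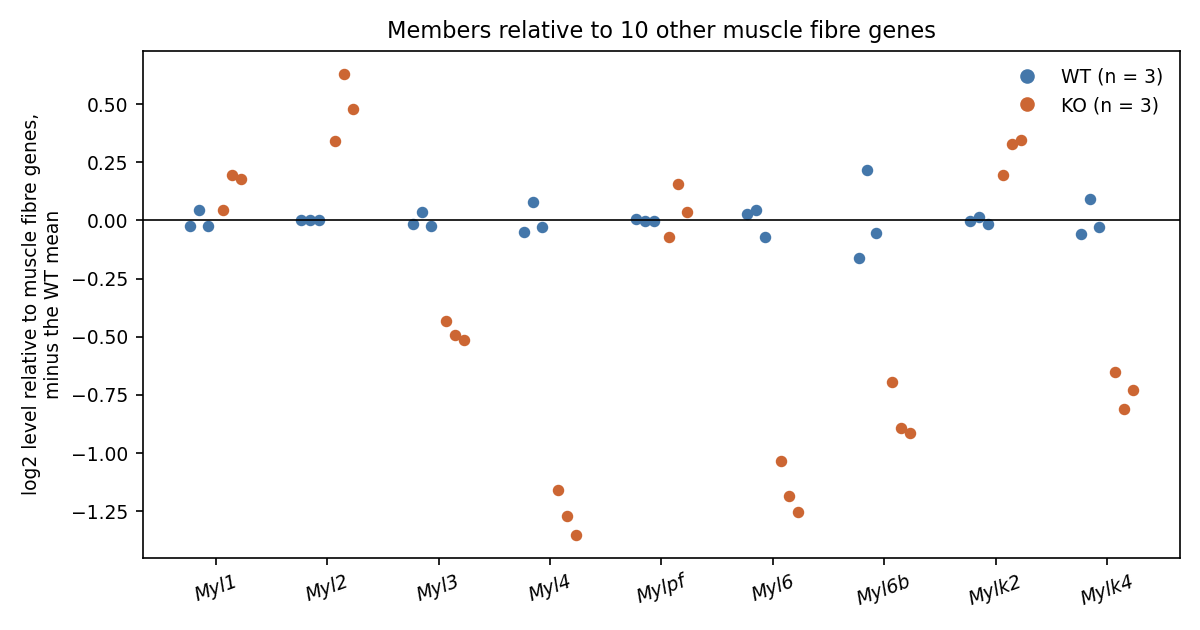
Log2 CPM of each gene minus the mean log2 CPM of 10 muscle fibre genes in the same sample, with the WT mean set to 0, for 3 WT (blue) and 3 KO (orange) samples. *Myl2*, *Mylk2* and *Myl1* lie above 0 in KO, *Mylpf* straddles it and the other 5 genes lie below, down to a mean of -1.26 for *Myl4*.

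Those 10 genes themselves rose in 9 cases, with a median log2 fold change of 1.16, all but the calcium channel gene *Ryr1*. Of 8 fast fibre genes outside myosin all 8 rose, with a median of 1.46, from *Tnnc2* at 0.95 to *Pvalb* at 4.19, and the most abundant of them was *Tnnt3* at 1.38. *Tnnc2* is uncertain, with only 51 to 133 counts in a sample, as 592 of its 800 exon bases overlap *Ube2c* on the other strand. Without it the range begins at *Eno3* with 1.30. Of 8 slow fibre genes outside myosin 3 rose (*Casq2* 0.84, *Myoz2* 1.22 and *Csrp3* 0.81) and the slow troponin genes *Tnni1*, *Tnnt1* and *Tnnc1* stood at -0.19, 0.20 and 0.03, not called. *Myl2* and *Myl3* thus rose among slow genes of which 5 of 8 were not called.

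Of 15 regulators of fibre genes, *Myf6* alone was called (2 genes without KO replicate 1), with a log2 fold change of 0.82 and an adjusted p from edgeR of 5.58e-06, and *Mef2c*, the most abundant, had 0.30. *Myod1* and *Myog* both stood at -0.22, under the fold threshold, with adjusted p of 0.00494 and 0.00212 in edgeR's test. Of 6 genes of myosin folding and turnover, *Trim63* (0.83) and *Trim54* (1.06) rose, and the chaperone gene *Hsp90aa1* had -0.37.

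For each member, the protein-coding genes whose centred log2 CPM profile over the 6 samples lay closest were found among 11839 genes with a mean of at least 5 CPM. The profile most like that of *Myl1* was that of *Slc2a4*, the insulin-responsive glucose transporter, at a Euclidean distance of 0.0447, followed by *Hspb7* and *Atp1b2*. *Mylk2* was followed most closely by *Mlip* (0.0483) and *Acta1* (0.0511), and then *Chchd10*. *Mylpf* lay nearest to *Adssl1* (0.0831), an enzyme of purine synthesis in muscle, and to *Myoz2*, and *Myl2* to *Coq8a* (0.128) and *Myoz1*. *Myl3* lay nearest to *C1qtnf9* (0.0441), *Ptp4a3* and *Dlat*. The nearest to *Mylk4* were *St3gal5*, *Map3k20* and *Col5a3*, to *Myl6b* *Slc43a2*, *Fam189b* and *Smad6*, to *Myl4* *Tomm20*, *Ccsap* and *Rer1*, and to *Myl6* *Fkbp7*, *Ddx50* and *Jagn1*. The 6 points fall into 2 groups, so a small distance says mostly that the difference between genotypes was of the same size.

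Markers of other cell types moved with the genotype. All 10 keratinocyte markers fell, with a median log2 fold change of -3.92 and a summed level of 15263.2 to 22782.7 CPM in WT and 672 to 749 CPM in KO, led by *Krt1* and *Krt10* (-5.47 and -6.20), and none was at 0 in any sample. All 7 red blood cell markers tested fell, with a sum of 3947.5 to 5190.8 CPM in WT and 548 to 669 CPM in KO, and all 8 fat cell markers rose, with 236 to 291 CPM in WT and 795 to 951 CPM in KO. Their part in the levels of the light chains was not tested. When keratin, keratinocyte and globin genes were left out of the scaling, the log2 fold changes stayed at 1.30 for *Myl1*, 1.65 for *Myl2*, 0.67 for *Myl3*, 1.20 for *Mylpf* and 1.45 for *Mylk2*. This bears on the scaling of the libraries only and says nothing of the cell types in the tissue.

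Of the remaining lists, 5 of 8 macrophage genes rose (*Mrc1* by 0.91 on the log2 scale), or 3 without WT replicate 2 or with library size as the only scaling, and, of 8 cartilage genes, 1 rose and 4 fell (*Comp* 0.79, *Matn1* -2.24). None of 8 fibroblast genes and none of 8 endothelial genes was called, with *Col1a1* at 0.16 and *Cdh5* at 0.16. *Myl2*, *Myl3* and *Myl4* are also heart genes, and *Myl6* and *Myl9* smooth muscle genes. Of 8 heart markers 4 were tested, of which *Myh6* rose (529 to 634 counts in WT and 1051 to 1275 in KO), *Myl7* fell as given above, and *Tnni3* (173 to 336 counts over all samples) and *Gata4* (17 to 34) were not called. The other 4 were too low to be tested, with at most 7 counts in a sample for *Nppa* and for *Nppb*, 27 for *Tbx20* and 1 for *Bmp10*. Of 8 smooth muscle genes 2 rose, among them *Myh11* at 1.07, while *Acta2*, the most abundant, had -0.19. *Myh11* and *Myh14* also rose among 4 nonmuscle and smooth muscle heavy chains, in which *Myh9* had -0.02, but 1 of the 4 was called without WT replicate 2, without KO replicate 2 or with library size as the only scaling.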

How the data were processed

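RNA-seq of 3 WT and 3 *SYISL* KO samples of fetal leg muscle was used. The deposited values are gene counts with no normalization. The authors made them from 150 bp paired-end reads with Trim Galore 0.6.6, HISAT2 2.2.1 and mm10 and featureCounts 2.0.1, as the submitters' processing notes name them. Whether counting was stranded, used reads or pairs, and on which annotation, is not given in the sources used here. Gene IDs were matched without version to GENCODE M21, and 55227 of 56262 were found.

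Counts were tested in R 4.3.3 with edgeR 4.0.16 (filterByExpr, TMM factors, quasi-likelihood F-test on genotype, Benjamini-Hochberg adjustment over all genes tested), checked on simulated data. The study used DESeq2, which was run here as an alternative (version 1.42.0), as was limma-voom (limma 3.58.1). CPM use TMM-scaled totals. A count of 3, the limit that a count of 0 allows, is 0.0293 to 0.0366 CPM. It covers counting error only. TPM divide counts by the M21 union exon length, or by that of the main (APPRIS principal) transcript, an alternative chosen after seeing the data. IDs with other version numbers show that the counting used another release. Promoter windows are from RefSeq. Other alternatives were other scalings, filters and thresholds, a replicate block, and leaving out each sample.

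The 9 genes and the gene lists were chosen with earlier results of these data known. Named are all 9 genes, all tested genes of the lists on light chains, kinases, phosphatase, calmodulin and striated heavy chains, from other lists the most abundant gene and the largest rise and fall among called genes, and the 3 nearest profiles of each gene. *Ryr1*, *Csrp3*, *Trim63*, *Myod1*, *Myog*, *Myh14* and the slow troponin genes were named after their values were seen. *Ahsp* of the red blood cell list was not analysed here. Some genes that this rule names are not reported here.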

Additional observations from a re-analysis of the deposited data

How the results depend on the processing

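Of the 9 genes, 5 were called higher and 0 lower under every alternative but those of the fold threshold, which gave 7 higher with no threshold and 4 at a fold over 2. Over all alternatives the log2 fold change lay between 1.23 and 1.43 for *Myl1*, 1.52 and 1.80 for *Myl2*, 1.09 and 1.33 for *Mylpf* and 1.38 and 1.58 for *Mylk2*. *Myl3* (0.67) no longer passed at a fold over 2, and *Myl6b* (0.31) and *Mylk4* (0.42) passed with no fold threshold. Over all genes, 4838 were higher and 5098 lower with no fold threshold, and 774 were higher and 1269 lower at a fold over 2.

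*Myl6*, which was not called under any alternative, turned positive with upper-quartile factors (0.0564) and ranged from -0.0478 to 0.0211 when 1 sample was left out, positive without WT replicate 1, KO replicate 1 or KO replicate 3. The share of *Mylpf* turned to -0.26 percentage points with *Myl2* as the only other gene of the pool, since this leaves out *Myl7*, *Myl9*, *Myl10*, *Myl12a* and *Myl12b*. Relative to muscle fibre genes *Mylpf* ranged from -0.0188 to 0.0922 when 1 sample was left out, negative without KO replicate 2, and was -0.0124 with *Actn2* and -0.033 with *Ryr1* off the list. The cause was not tested.

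The labels tie samples of the same replicate number by nothing but the number. Their deviations from the group means correlated at -0.2, -0.134 and 0.0472. So few samples cannot show whether they also share a litter or a batch. With a replicate block the log2 fold changes were 1.29 for *Myl1*, 1.63 for *Myl2* and 1.19 for *Mylpf*, the same 5 genes passed, and 1744 genes were higher and 1777 lower. With 3 samples against 3, the exact tests of shares and ratios cannot pass 0.05, so they say nothing of stability. Of 756 counts of other lists under alternatives, 41 moved by over 1.5 times.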
